A study of Danio rerio
Oryzias latipes and Oryzias latipes and Danio rerio with 7 samples.

Results

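A set of 10 genes of the acute inflammatory response was followed in chimeric fish embryos: the chemokines CXCL8 and ccl19a.1, the cytokines tnfb and il1b, the matrix metalloproteinases mmp9 and mmp13a, the enzyme irg1, and the feedback inhibitors nfkbiaa, socs3a and socs3b. They were chosen by symbol, with case ignored, as a group described from earlier values of these libraries as lower in the host tissue of the chimeras. The medaka genome held records for 7 of the 10 symbols, out of 20459 gene IDs. The zebrafish genome held 10 records for 9 symbols, out of 32264 gene IDs, and 6 symbols had a record in each genome. CXCL8 was therefore read only on the medaka genome, whereas il1b, mmp13a and socs3a were read only on the zebrafish genome and have no host value behind their choice.

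The study sequenced poly(A) RNA of whole embryos in 7 libraries. The 3 chimera libraries came from medaka blastulae of the Cab strain that had received blastomeres of zebrafish of the AB strain of the same age. The 2 medaka libraries came from Cab embryos and the 2 zebrafish libraries from AB embryos that had not been combined. All were kept at 28 °C, the chimeras and the medaka embryos in ERM medium and the zebrafish embryos in E3 medium, and the stage is given only as embryo. A chimera library is a mixture of both species. Its values on the medaka genome are read here as those of the host, and its values on the zebrafish genome as those of the donor cells. The labels do not describe a control in which medaka cells were grafted into medaka, so transplantation itself and the presence of zebrafish cells cannot be told apart. They also do not say whether replicate libraries were made from different clutches. P-values therefore reflect the spread among these libraries alone, and that spread may be technical.

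In vertebrates, injury or microbial products activate the transcription factor NF-kB, which switches on genes for cytokines such as TNF and interleukin 1 beta and for chemokines such as CXCL8 that draw in neutrophils. Neutrophils and macrophages then release metalloproteinases that cut the surrounding matrix, and activated macrophages make itaconate with the enzyme encoded by irg1. The same signals induce their own brakes: nfkbiaa encodes an inhibitor that holds NF-kB in the cytoplasm, and socs3 genes encode inhibitors of signalling from JAK kinases to STAT3.

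Expression is given as FPKM, the fragments of a gene scaled to its transcript length and to the mapped fragments of the library, so levels can be compared between genes. On the medaka genome the chimeras held 27167734 to 30983952 fragments per library and the medaka embryos 18330408 to 21491640, as derived from the confidence limits in the tables. On the zebrafish genome the chimeras held 764000 to 941708 fragments and the zebrafish embryos 21866655 to 28574227. A zebrafish library was thereby 38 to 48.9 times as deep per FPKM as a chimera there. The medaka libraries held 77794 to 102064 fragments on the zebrafish genome, and the zebrafish libraries 63818 to 81765 on the medaka genome. Some reads thus map across species, and genes averaging 1 FPKM or more in the other species' libraries were left out of the tests. None of the member records had a value above 0 in a library of the other species (0 of 17), so no cross-mapped reads were seen for them. Single genes of known tissues were read in both groups on the medaka genome. The endothelial cadherin gene cdh5 had 3.76 to 4.05 FPKM in chimeras and 3.88 to 4.39 FPKM in medaka embryos. The neuronal gene elavl3 had 52.8 to 59.3 FPKM in chimeras and 36 to 36.1 FPKM in medaka embryos. The groups thus lay apart for elavl3, and whether they differed in stage or in tissue make-up was not tested.

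On the medaka genome all 7 records were lower in chimeras than in medaka embryos, and no chimera reached the lower medaka library for any of them. This contrast chose the genes, so its values are a description and were not tested. Across all 13719 genes tested on that genome, 3.14% were called lower, 5.77% were called in either direction and 14.5% had every chimera below every medaka library, and nothing is read from the members' count against these shares. The median difference of the 7 was -1.23 on the log2(FPKM + 1) scale, beside -0.001 over all genes tested, whose 5th percentile was -0.36 and whose 95th was 0.28. All 7 passed the filter on low values, and 4 of them, ccl19a.1, tnfb, irg1 and mmp9, did so only through their level in medaka embryos. In bulk embryos, fewer cells of a type and less RNA per cell cannot be told apart.

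Both chemokines were far below their medaka level. CXCL8, the neutrophil attractant, had 3.42, 3.06 and 3.18 FPKM in the 3 chimeras, against 26.1 and 17.7 FPKM in the 2 medaka libraries. The chimeras lay close together, and the deposited confidence limits of the 2 medaka libraries did not overlap each other. After rescaling between libraries the means were 3.18 ± 0.27 FPKM in chimeras (SD, n = 3) and 22.2 ± 5.7 FPKM in medaka embryos (SD, n = 2), 7-fold lower in chimeras and -2.46 on the log2 scale. Its medaka level stood at the 75.9th percentile of the genes tested, the highest of the 7. The chemokine ccl19a.1, whose mammalian relative guides lymphocytes and dendritic cells through the receptor CCR7, had 0.225, 0 and 0.253 FPKM in chimeras, against 7.74 and 15.6 FPKM in medaka embryos. It was at 0 in 1 chimera, and the medaka libraries differed 2.05-fold from each other. Its difference of -3.40 was the lowest of the 7 and the 32nd lowest of all genes tested. Only 3.99 implied fragments lay behind the 3 chimera values, where the medaka level would have given 276, a ratio of 67.1 with an exact 95% interval of 25.6 to 250 for counting error only.

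Of the cytokines, tnfb was read in the host. It encodes a tumour necrosis factor and had the lowest level of the 7 in medaka embryos, at the 3.6th percentile. It had 0.39, 0.332 and 0.247 FPKM in chimeras, against 1.13 and 1.1 FPKM in medaka embryos. The groups lay apart by more than their spread, with means of 0.318 ± 0.0719 FPKM in chimeras and 1.13 ± 0.00863 FPKM in medaka embryos, or 3.56-fold lower in chimeras. On the log2(FPKM + 1) scale this is -0.70, since that scale understates the change of low genes.

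Both effector enzymes were also far below their medaka level. The gelatinase gene mmp9, which neutrophils and macrophages use to cut collagen fragments and basement membrane, had 0.258, 0.194 and 0.233 FPKM in chimeras, against 6.5 and 4.94 FPKM in medaka embryos. The mean was 25.7-fold lower in chimeras (0.226 ± 0.0385 FPKM, against 5.81 ± 1.04 FPKM in medaka embryos) and rested on 110 fragments in chimeras, where the medaka level would have given 2704. This record spans 86962 bp and overlaps adora1b and a record with no symbol, and reads shared between them cannot be told apart. The itaconate enzyme gene irg1 had 0.0113, 0.0139 and 0.0253 FPKM in chimeras, against 1.31 and 1.4 FPKM in medaka embryos. Each chimera held 1 to 1.99 fragments of irg1, and the ratio of 79 had an exact 95% counting interval of 30.2 to 294. Its level in host tissue was close to 0, while the 2 medaka libraries differed 1.09-fold.

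The feedback inhibitors had the smallest ratios between the means. The NF-kB inhibitor gene nfkbiaa had 7.13, 8.32 and 8.0 FPKM in chimeras, against 13.4 and 14.3 FPKM in medaka embryos, and was 1.83-fold lower in chimeras (7.7 ± 0.47 FPKM, against 14.1 ± 0.845 FPKM in medaka embryos). The STAT3 pathway inhibitor gene socs3b had 4.53, 4.85 and 4.17 FPKM in chimeras, against 8 and 7.07 FPKM in medaka embryos, 1.72-fold lower in chimeras. Both were expressed in every chimera at good depth, with 991 for nfkbiaa and 718 fragments for socs3b over the 3 libraries. Their log2 differences of -0.80 and -0.67 ranked 243rd and 296th lowest, with tnfb between them at 283rd on that scale.

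**Figure D1:**
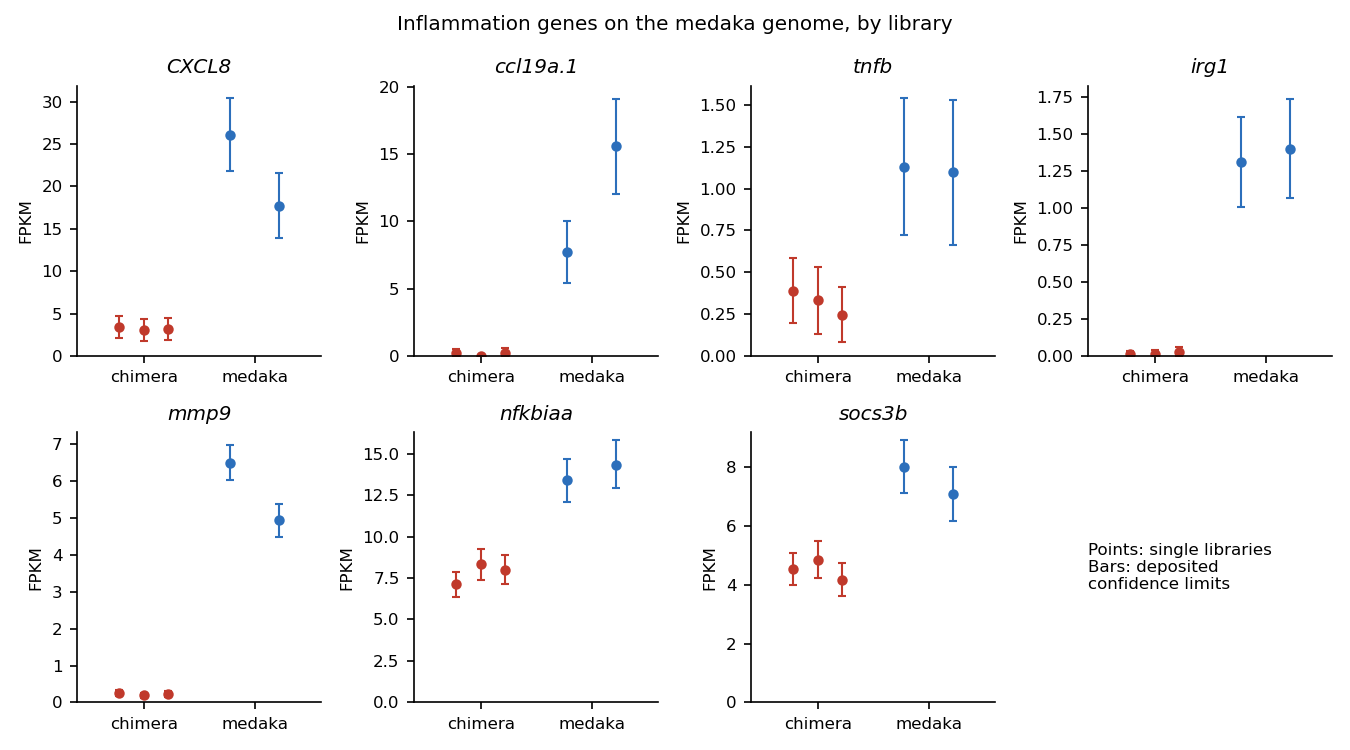
FPKM on the medaka genome of the 7 inflammation genes with a medaka record, in each chimera (red, n = 3) and each medaka library (blue, n = 2); points are single libraries and bars the deposited confidence limits. In all 7 panels the chimera limits lie below the medaka limits, in the contrast that chose the genes, with CXCL8 near 3 FPKM in chimeras and irg1 near 0.

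The 7 genes thus formed an order, from ccl19a.1 and irg1 with ratios of 74.2 and 82.9 between the means, through mmp9, CXCL8 and tnfb, to nfkbiaa and socs3b. The exact 95% counting intervals of mmp9 and CXCL8 lay apart, as did those of tnfb and nfkbiaa. These intervals come from the contrast that chose the genes, pool the fragments of each group and leave out the spread between libraries. They are too narrow for CXCL8, mmp9 and ccl19a.1, whose medaka libraries differed by more than counting error. The order itself was therefore not tested. The interval of mmp9, 20.4 to 30.5, overlaps those of ccl19a.1 and irg1, which overlap each other. That of CXCL8, 5.25 to 9.02, overlaps that of tnfb, 2.22 to 5.36, and that of nfkbiaa, 1.62 to 1.95, overlaps that of socs3b, 1.51 to 1.89. The deposited confidence limits of chimeras and medaka embryos lay apart for 7 of 7 genes. This contrast chose the genes and the share over all genes was not computed, so nothing is read from that count. Between the 2 medaka libraries the limits lay apart for 3 of them, CXCL8, mmp9 and ccl19a.1, of which the first 2 were higher in medaka library 1 and ccl19a.1 in medaka library 2. The genes were not neighbours: they lay on 7 different medaka chromosomes, with CXCL8 at 1:16461218-16461836, mmp9 at 7:11025442-11112403, ccl19a.1 at 9:28681468-28683586 and tnfb at 16:25665587-25666884. The remaining records were socs3b at 19:12199026-12200976, irg1 at 21:9902266-9904618 and nfkbiaa at 24:12044802-12047362, in the coordinates of the deposited tables, whose medaka build is not given in the sources used here.

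The wider pathways were read from lists of ligands, receptors and signalling genes in the same host contrast. Of 185 listed genes tested, each counted once, 20 fell and 3 rose in chimeras relative to medaka embryos at an adjusted p under 0.05 (limma, Benjamini-Hochberg), with a median difference of -0.07. That is 10.8% lower, beside 3.14% lower and 2.62% higher over all genes tested (431 and 360 genes). The lists were drawn up with earlier results of these data known, so this share is not independent of them. Some listed genes averaged under 1 FPKM in chimeras and passed the filter on low values only through medaka embryos. Such genes could be called lower but not higher. Among those named below they were irg1l, mmp13b, tnip2, fosl1a, irf1b, ptafr and an MFAP4 record. Over all host genes called, not only the listed ones, 45.5% were higher after rescaling. With the FPKM as deposited that share was 57.7%, and under quantile normalization 55.5%. The listed calls rested on few libraries: 3 genes fell when chimera 3 was left out, 2 when medaka library 1 was left out and 2 when medaka library 2 was left out. All 23 kept their direction in the 5 fits that left out a library, and the macrophage gene MFAP4 was the one called in all 5.

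Of 3 relatives of the members tested in the host, 2 fell by limma, beside 3.14% lower over all genes tested. At an unadjusted p under 0.05, 3 were lower and 0 higher. The 2 that fell, irg1l and mmp13b, passed the filter on low values only through medaka embryos. Lower was thus the only call open to them, and nothing is read from this count. The irg1 paralogue irg1l fell 2.35-fold, with 0.497, 0.523 and 0.559 FPKM in chimeras, against 1.17 and 1.23 FPKM in medaka embryos (adjusted p = 0.02). The collagenase gene mmp13b had 0.396, 0.342 and 0.309 FPKM in chimeras, against 0.864 and 1.18 FPKM in medaka embryos, and fell 3.03-fold (adjusted p = 0.031). The second NF-kB inhibitor gene, nfkbiab, had 18.7, 21.2 and 19 FPKM in chimeras, against 21.2 and 21.3 FPKM in medaka embryos, a difference of -0.15 that did not pass (adjusted p = 0.13). As deposited, chimera 2 lay at the medaka level for this gene, and the groups touched. After rescaling, nfkbiab had means of 19.3 ± 0.672 FPKM in chimeras and 21.6 ± 0.355 FPKM in medaka embryos.

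Most ligands and receptors of these pathways did not pass the test. Of 12 tested cytokine and chemokine ligands 1 fell and 1 rose, with a median of -0.05, beside 3.14% lower and 2.62% higher over all genes tested. The growth factor gene hbegfa, a ligand of the EGF receptor, had 5.38, 5.36 and 5.73 FPKM in chimeras, against 8.83 and 7.67 FPKM in medaka embryos (difference -0.55, adjusted p = 0.016). The gene for macrophage migration inhibitory factor, mif, rose 1.19-fold, to 136 ± 1.61 FPKM in chimeras, against 114 ± 6.86 FPKM in medaka embryos (adjusted p = 0.049). Of 13 receptors and adaptors 0 fell and 1 rose by limma, and 3 were lower and 2 higher at an unadjusted p under 0.05. That receptor was csf1ra, which serves macrophages and pigment cells in zebrafish, at 8.02 ± 0.264 FPKM in chimeras and 6.24 ± 0.0727 FPKM in medaka embryos (adjusted p = 0.027). The TNF receptor gene tnfrsf1a differed by -0.18 (adjusted p = 0.37), and myd88, the adaptor of Toll-like and interleukin 1 receptors, by 0.00 (adjusted p = 0.98), with 22.8, 21.9 and 22.4 FPKM in chimeras and 20.9 and 22.3 FPKM in medaka embryos.

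Inside the cell, the NF-kB and JAK-STAT lists were read in turn. Of 33 tested NF-kB genes 5 fell (15.2%) and 0 rose by limma, beside 3.14% lower over all genes tested. At an unadjusted p under 0.05, 8 were lower and 0 higher, and the median was -0.09. The deubiquitinase gene tnfaip3, itself induced by NF-kB as a brake, fell 1.44-fold, with 2.31, 2.47 and 2.1 FPKM in chimeras, against 3.28 and 3.12 FPKM in medaka embryos (adjusted p = 0.03). Its partner tnip2 fell 3.18-fold (adjusted p = 0.019), although at 0.436 ± 0.137 FPKM in chimeras and 1.39 ± 0.0188 FPKM in medaka embryos. The NF-kB subunit gene nfkb2 fell 1.48-fold (adjusted p = 0.027) and the kinase gene IRAK4 fell 1.28-fold (adjusted p = 0.025). The kinase complex itself gave no call, with ikbkb at -0.11 (adjusted p = 0.35) and ikbkg at 0.13 (adjusted p = 0.30). In the JAK-STAT list 1 of 19 fell (5.26%) and 0 rose by limma. At an unadjusted p under 0.05, 5 were lower and 0 higher, and the median was -0.12. Whether the lists differ was not tested. The gene that fell was stat3, which encodes the transcription factor that socs3 proteins restrain. It had 26.6, 27.5 and 25.9 FPKM in chimeras, against 36.8 and 32.6 FPKM in medaka embryos (difference -0.41, adjusted p = 0.016).

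Outside the members, 1 of 17 metalloproteinase and inhibitor genes fell, with a median of 0.02, beside 3.14% lower over all genes tested. It was adam8a, a membrane metalloproteinase gene of leukocytes in mammals, at 9.22 ± 0.127 FPKM in chimeras and 12.0 ± 0.00496 FPKM in medaka embryos (adjusted p = 0.015). The stromal gelatinase gene mmp2 differed by -0.02 (adjusted p = 0.87). Of 35 immediate early and stress genes 5 fell, among them the AP-1 genes junba at 1.47 ± 0.118 FPKM in chimeras and 2.7 ± 0.315 FPKM in medaka embryos (adjusted p = 0.02) and fosl1a at 0.923 ± 0.241 FPKM in chimeras and 1.89 ± 0.142 FPKM in medaka embryos (adjusted p = 0.041). Of 9 interferon response genes 1 fell, irf1b, whose mammalian relative is a transcription factor gene induced by interferon gamma. It had 0.695, 0.389 and 0.58 FPKM in chimeras, against 2.18 and 3.48 FPKM in medaka embryos, 5.25-fold lower in chimeras (adjusted p = 0.014). Of 13 acute phase, complement and antimicrobial genes 2 fell and 1 rose. The gene ptafr, the receptor for platelet-activating factor, fell 2.96-fold (adjusted p = 0.0093), and the fibrinogen chain gene fgg fell 1.26-fold (adjusted p = 0.036), whereas the cathepsin gene ctsk rose 1.4-fold (adjusted p = 0.0086).

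**Figure D2:**
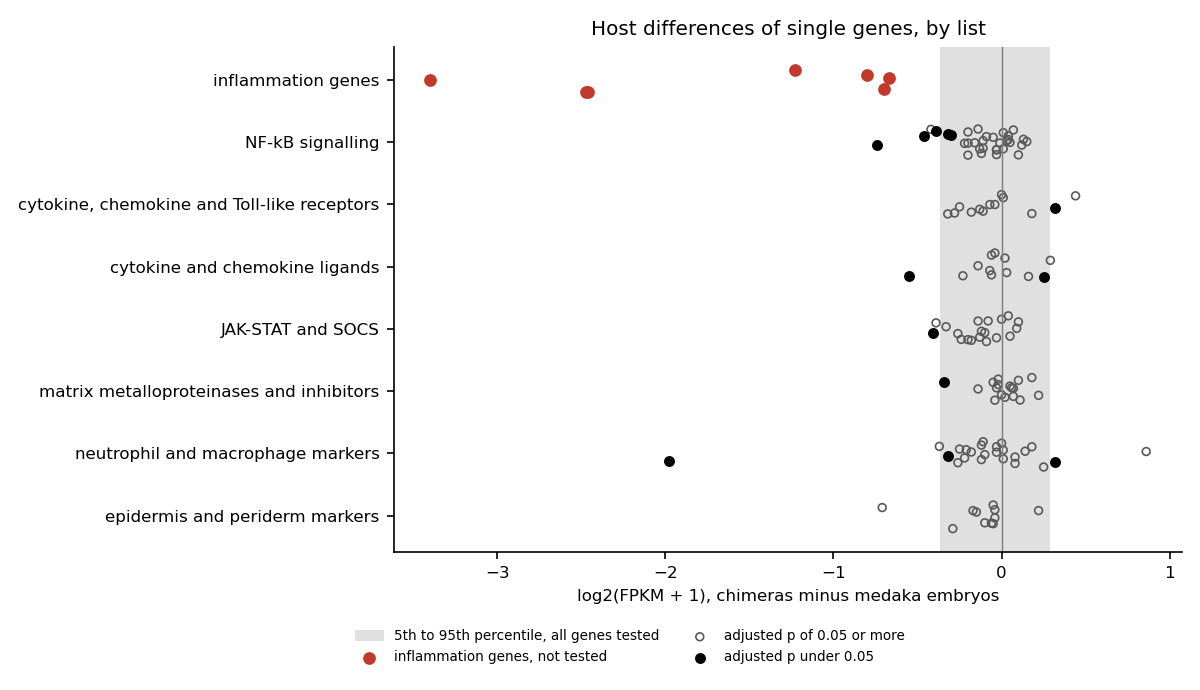
Differences of single genes on the medaka genome, chimeras minus medaka embryos, on the log2(FPKM + 1) scale (x axis), by gene list (y axis, points spread within a row to be visible). The 7 inflammation genes (red, not tested) lie between -3.40 and -0.67, left of the grey band from -0.36 to 0.28 that holds the middle of all genes tested. Most genes of the lists shown (open, adjusted p of 0.05 or more) lie within it. The lists of relatives of the members and of immediate early, interferon response and acute phase genes are not drawn, among them irf1b at -1.31 and ptafr at -0.87.

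Markers of the cells that make these factors were set beside the members. Of 24 tested neutrophil and macrophage markers 2 fell and 1 rose by limma, with a median of -0.07, beside 3.14% lower and 2.62% higher over all genes tested. At an unadjusted p under 0.05, 7 were lower and 2 higher. Summed over 31 marker records, the chimeras held 244 to 265 FPKM on the medaka genome and the medaka embryos 243 to 246 FPKM. The highest records weigh most in this sum, such as mpx and nccrp1, the latter with 49.5, 61.8 and 50.8 FPKM in chimeras. The leukocyte gene lcp1 ran from 16.4 to 16.6 FPKM in chimeras and from 17.2 to 17.4 FPKM in medaka embryos. The neutrophil myeloperoxidase gene mpx had 44.4, 49.4 and 44.7 FPKM in chimeras, against 46.7 and 42.2 FPKM in medaka embryos, in its higher of 2 records (adjusted p = 0.92). The NADPH oxidase gene ncf4 fell 1.29-fold (adjusted p = 0.024). The largest fall in this list was in MFAP4. This record had 0.877, 0.946 and 0.671 FPKM in chimeras, against 5.25 and 6.97 FPKM in medaka embryos, 7.61-fold lower in chimeras (adjusted p = 0.0016). Another MFAP4 record had 7.24, 7.53 and 6.97 FPKM in chimeras and 7.64 and 6.35 FPKM in medaka embryos (adjusted p = 0.95), so the family did not move together. Of 11 epidermis and periderm markers 0 fell and 0 rose by limma, and 1 was lower and 0 were higher at an unadjusted p under 0.05, with summed levels of 1480 to 1633 FPKM in chimeras and 1601 to 1730 FPKM in medaka embryos over 20 of 21 records. The sum leaves out krt5, which had no valid Cufflinks status in chimera 1 and was listed at 0, 6520 and 5840 FPKM in chimeras and 6100 and 5640 FPKM in medaka embryos. The sum was taken without the filter on the other species' libraries. It holds strongly expressed records that this filter kept out of the tests, such as krt4 and krt8, so zebrafish reads may add to it. Among these records krt4 had 283, 297 and 278 FPKM in chimeras, against 373 and 329 FPKM in medaka embryos. The record krt97 went the other way, with 15, 13 and 13.9 FPKM in chimeras, against 8.7 and 8.58 FPKM in medaka embryos.

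**Figure D3:**
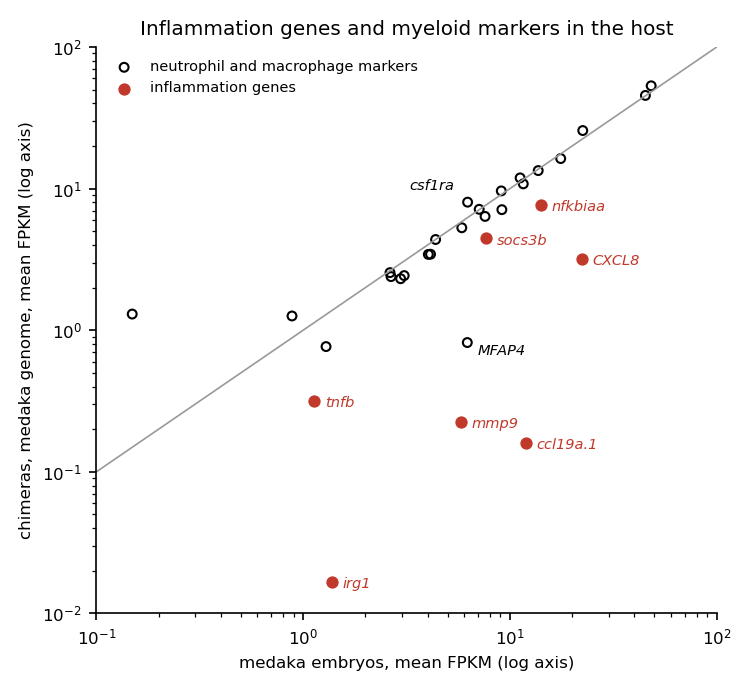
Mean FPKM on the medaka genome in chimeras (y axis, n = 3) against medaka embryos (x axis, n = 2), both on log axes, for the inflammation genes (red) and the 24 tested neutrophil and macrophage markers (open); the grey line marks equal levels. Most markers lie along the line, while the 7 inflammation genes and the MFAP4 record at 0.818 FPKM in chimeras and 6.22 FPKM in medaka embryos lie below it.

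The genes whose profile over the 5 chimera and medaka libraries came nearest to the mean of the members were found by Euclidean distance on centred log2(FPKM + 1) values. The mean member profile was -0.64, -0.71 and -0.66 in the chimeras and 0.99 and 1.02 in the medaka libraries. The 8 nearest were zgc:171566 at a distance of 0.262, si:ch211-153b23.5 at 0.301, si:ch211-196h16.12 at 0.363, MFAP4 at 0.45, noxo1b at 0.48, PNchrM at 0.493, pck1 at 0.517 and pygmb at 0.534. The NADPH oxidase organizer gene noxo1b had 0.231, 0.168 and 0.153 FPKM in chimeras, against 4.43 and 3.26 FPKM in medaka embryos. The gluconeogenesis enzyme gene pck1 had 30.6, 33.8 and 30.3 FPKM in chimeras, against 75.3 and 69.5 FPKM in medaka embryos. The glycogen phosphorylase gene pygmb had 13.9, 15.8 and 13.9 FPKM in chimeras, against 35.1 and 32.4 FPKM in medaka embryos. All 8 had every chimera below both medaka libraries, a pattern that the rule for choosing them favours.

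On the zebrafish genome, a contrast with other control libraries than the one that chose the host genes, all 10 records had a lower mean in the donor cells of chimeras than in zebrafish embryos. The background there was high: of 16592 genes tested, 32.7% were called lower and 10.5% higher in chimeras, 43.1% in either direction, and 41.5% had every chimera below every zebrafish library. Only 4 of the 10 records passed the filter on low values, all 4 through their level in zebrafish embryos alone. Records that pass in this way can be called lower but not higher. These 4 were called lower, a direction that the filter fixed, and mmp13a at 0 was already known from earlier results. Chimeras and zebrafish embryos differed in depth, and a donor gene at 0 in a chimera is a count of few expected fragments. Markers of whole cell types moved with this contrast. Neutrophil and macrophage markers summed to 26 to 28.1 FPKM in chimeras and 1317 to 1350 FPKM in zebrafish embryos. Most of the zebrafish sum came from pfn1, with 923 and 908 FPKM, and lyz, with 202 and 183 FPKM. Of the 55 records 39 were at 0 in every chimera, among them lcp1. Some of these, such as marco and tyrobp, had fewer than 3 expected fragments per chimera, so their zeros cannot show absence. Epidermis and periderm markers summed to 34.1 to 36.3 FPKM in chimeras and 6037 to 6290 FPKM in zebrafish embryos. This sum covers the 29 of 35 records with a valid status. Both donor sums were taken without the filter on the other species' libraries, so medaka reads may add to the chimera values. The part of either cell type in the members' values was not tested.

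Both metalloproteinase genes passed the filter through their level in zebrafish embryos alone, so they could be called lower but not higher. The collagenase gene mmp13a was listed at 0 in all 3 chimeras, against 3.74 and 4.55 FPKM in zebrafish embryos (adjusted p = 9.5e-05). Its 3 zeros show no spread, so this p-value does not measure their counting error. The same holds for the other tested genes at 0 in all 3 chimeras. At the zebrafish level the 3 chimeras together would have held 27.7 fragments, so it was at least 3.08-fold lower in chimeras, counted against a floor of 3 fragments per chimera. The donor mmp9 had 0.627, 0 and 0.707 FPKM in chimeras, against 2.0 and 2.15 FPKM in zebrafish embryos, a difference of -1.16 (SE 0.268, adjusted p = 0.023) that became 0.02 under quantile normalization (adjusted p = 0.96). Its FPKM in the chimeras stand for 4.63 fragments, and its confidence limits for 0.751, against 20.4 at the zebrafish level.

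Of the feedback inhibitors, nfkbiaa and socs3b passed the filter on the zebrafish genome, through their level in zebrafish embryos. The NF-kB inhibitor gene nfkbiaa had 0, 0 and 0.928 FPKM in chimeras, against 6.13 and 5.48 FPKM in zebrafish embryos (difference -2.49, SE 0.349, adjusted p = 0.0043), and its record overlaps psma6b. Its paralogue nfkbiab had 28.8, 28.5 and 17 FPKM in chimeras, against 28.1 and 24.5 FPKM in zebrafish embryos (difference -0.19, adjusted p = 0.61), and it was thus well covered in the same libraries. The donor socs3b had 1.66, 1.07 and 0 FPKM in chimeras, against 4.18 and 3.9 FPKM in zebrafish embryos (difference -1.56, SE 0.449, adjusted p = 0.046). Its FPKM in the chimeras stand for 7 fragments, and its confidence limits for 3.3, where 30.2 would have matched the zebrafish level. Without zebrafish library 1, or without zebrafish library 2, only 1 of the 4 was called, and socs3b also missed the threshold without chimera 2 (adjusted p = 0.073). It missed it as well with the FPKM as deposited (adjusted p = 0.052), without the expression filter (adjusted p = 0.06), with a pseudocount of 0.1 (adjusted p = 0.18) and under quantile normalization, where its difference was -0.74 (adjusted p = 0.19).

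The other 6 donor records could not be compared at this depth. The zebrafish embryos themselves held under 1 FPKM of each, so the 3 chimeras together would have held 0.584 to 3.48 fragments. The cytokine gene il1b was at 0 in all 3 chimeras, against 0.123 and 0.206 FPKM in zebrafish embryos, and tnfb at 0 in all 3 chimeras, against 0.147 and 0.148 FPKM in zebrafish embryos. The gene ccl19a.1 was at 0 in the chimeras, against 0.457 and 0.476 FPKM in zebrafish embryos, and irg1 at 0, against 0.35 and 0.613 FPKM in zebrafish embryos. The 2 socs3a records had 0.156 FPKM each in chimera 1 and 0 in the others, against 0.357 to 0.463 FPKM in zebrafish embryos, and how reads were split between these near-equal records was not tested. The filter kept these 6 records out of the tests. Without it all 6 were called lower, on values that so few expected fragments cannot tell from 0, and their zeros do not show that the donor cells lacked them.

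**Figure D4:**
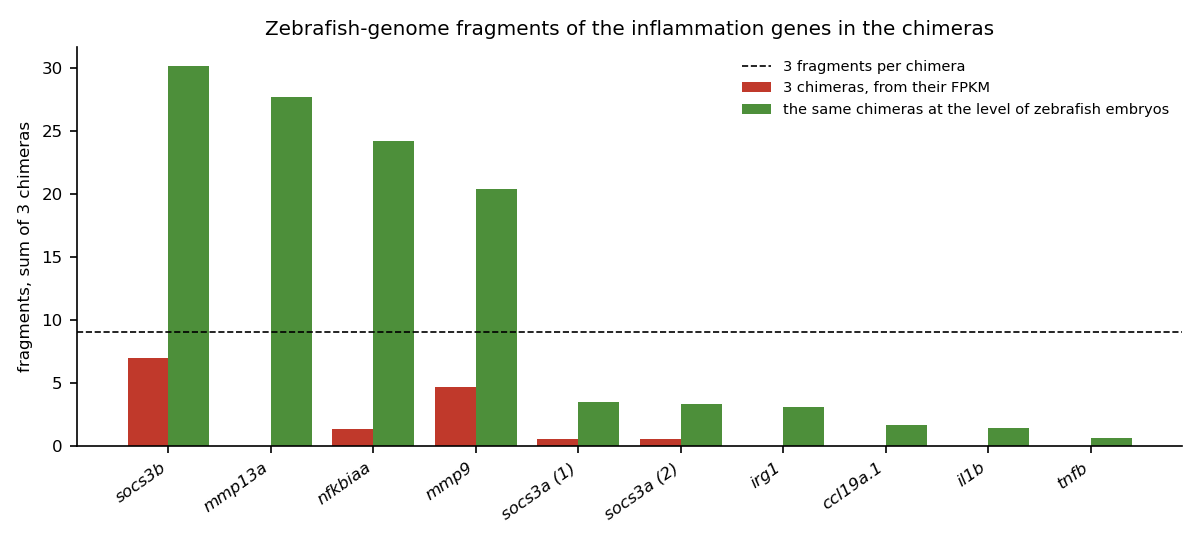
Fragments on the zebrafish genome summed over the 3 chimeras (y axis) for each inflammation gene record: red bars are the fragments their FPKM stand for, green bars those the same chimeras would hold at the level of zebrafish embryos, and the dashed line marks 3 fragments per chimera. The donor records of socs3b, mmp13a, nfkbiaa and mmp9 lie over the line at the zebrafish level, and the other 6 do not; the donor mmp9 difference of -1.16 became 0.02 under quantile normalization.

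Both genomes can be set side by side for 6 symbols, although chimeras are compared with medaka embryos in one and with zebrafish embryos in the other. The control levels already differed: ccl19a.1 had 11.9 ± 5.79 FPKM in medaka embryos and 0.479 ± 0.0129 FPKM in zebrafish embryos, and tnfb had 1.13 ± 0.00863 FPKM in medaka embryos and 0.151 ± 0.00813 FPKM in zebrafish embryos. For mmp9 the difference was -2.47 in the host and -1.16 in the donor cells, for nfkbiaa -0.80 in the host and -2.49 in the donor cells, and for socs3b -0.67 in the host and -1.56 in the donor cells. Whether these differences differ between host and donor was not tested.

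Of 267 listed genes tested on the zebrafish genome 159 were lower (59.6%) and 22 higher in chimeras, beside 32.7% lower over all genes tested there. Here too the lists were drawn up with earlier results of these data known. Among the 267, 69 were at 0 in all 3 chimeras. These passed the filter only through zebrafish embryos and could be called lower but not higher. So did further genes that averaged under 1 FPKM in chimeras, such as pycard at 0.281 FPKM. Of 18 ligands 15 fell, such as the chemokine gene cxcl14 with 2.12, 2.73 and 2.39 FPKM in chimeras, against 36.8 FPKM in both zebrafish libraries (adjusted p = 8.5e-05). Of 23 receptors 11 fell and 2 rose. The TNF receptor gene tnfrsf1a was at 0 in all 3 chimeras, against 4.6 and 5.16 FPKM in zebrafish embryos (at least 6.23-fold lower in chimeras, adjusted p = 9.3e-05), whereas the chemokine receptor gene cxcr4b, active in migrating and neural cells, rose 4.99-fold (adjusted p = 0.00013). Of 40 NF-kB genes 10 fell and 4 rose. The inflammasome genes caspb and pycard, used by zebrafish to process interleukin 1 beta, both fell, with caspb at 0 in all 3 chimeras, against 13.7 and 15.0 FPKM in zebrafish embryos (adjusted p = 7.6e-05), and pycard at 0, 0 and 0.859 FPKM in chimeras, against 44.6 and 42.7 FPKM in zebrafish embryos (adjusted p = 0.00024). Both are strongly expressed in zebrafish skin.

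In the JAK-STAT list 5 of 23 fell (21.7%) and 4 rose, beside 32.7% lower and 10.5% higher over all genes tested there. The kinase gene pim1, a STAT target in mammals, had 105, 125 and 86.2 FPKM in chimeras, against 50 and 52.9 FPKM in zebrafish embryos (adjusted p = 0.0094). Of 21 metalloproteinase genes 13 fell and 2 rose, and mmp2 had 3.24, 2.21 and 2.58 FPKM in chimeras, against 31.3 and 35.9 FPKM in zebrafish embryos (adjusted p = 0.00013). Of 30 neutrophil and macrophage markers 27 fell, of 24 epidermis and periderm markers 24 fell, and of 29 acute phase genes 29 fell. In these lists 17, 12 and 19 of the genes tested were at 0 in all 3 chimeras and could be called lower but not higher. The same holds for further genes that averaged under 1 FPKM in chimeras, such as mpx at 0.059 FPKM and tp63 at 0.229 FPKM. The prostaglandin synthase gene ptgs2a, an immediate early gene of inflammation, was at 0 in all 3 chimeras, against 9.26 and 9.51 FPKM in zebrafish embryos (adjusted p = 8.6e-05). Under quantile normalization 62% of all donor calls were higher, against 24.3% after median-ratio rescaling, and that setting moved the median of all genes by 0.54.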

How the data were processed

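RNA was measured in 7 libraries: 3 of chimeras, 2 of medaka and 2 of zebrafish embryos. Per the submitters' processing notes, the authors made the deposited FPKM with HISAT2 and Cufflinks 2.2.1, with danRer10 for zebrafish. For the medaka build and the HISAT2 version, the entry is: not given in the sources used here. Each library has a table per genome, 14 in all. Fragments were derived from the deposited confidence limits, which give too few where limits are wider than counting error; for donor members, fragments from FPKM and the depth per FPKM are also given. Floors of 3 fragments and intervals reflect counting error alone.

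Libraries were rescaled by median ratios and values taken as log2(FPKM + 1). Per-library values are as deposited, and means are rescaled. Genes averaging 1 FPKM or more in one of the compared groups, under 1 in the other species' libraries and with a valid Cufflinks status were tested with limma 3.58.1 (R 4.3.3; trend and robust options, Benjamini-Hochberg, threshold 0.05), chimeras against medaka embryos and against zebrafish embryos. The fits were also run on simulated data with known fold changes; the outcome is not given here, and no result rests on it. Figures were drawn with matplotlib 3.10.9; pandas 2.3.3, scipy 1.17.1 and numpy 2.4.6 under Python 3.11.15 handled the tables.

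The 10 members and the 11 gene lists (423 entries) were chosen with earlier results of these data known. From each list, up to 4 called genes with the smallest p were named per contrast, plus the 8 genes most like the members. Named after their values were seen were nfkbiab, host tnfrsf1a, myd88, ikbkb, ikbkg, host mmp2, mpx, lcp1, nccrp1 and the second MFAP4 record. The same holds for il11a, m17, il10, il12ba, tnfsf13b, c1qb, c1qc, rela and traf6, and for host krt4, krt8 and krt97. A planned promoter motif search was not run, and sequences were not used here.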

Additional observations from a re-analysis of the deposited data

Results flagged for a closer look

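In 5 genes of the pathway lists the called difference had opposite signs in the host and in the donor cells of the chimeras, with every library on that side; the difference between host and donor was not tested. The receptor gene csf1ra differed by 0.32 in the host and by -1.59 in the donor cells. There csf1ra was at 0 in all 3 chimeras and passed the filter only through zebrafish embryos, so lower was the only call open to it. The cathepsin gene ctsk differed by 0.45 in the host and by -4.40 in the donor cells. The stress gene gadd45ga differed by -0.37 in the host and by 1.29 in the donor cells. The transcription factor gene stat3, whose activation socs3 proteins limit, differed by -0.41 in the host and by 0.82 in the donor cells. The NF-kB brake tnfaip3 differed by -0.39 in the host and by 1.30 in the donor cells, where it had 6.07, 8.52 and 4.34 FPKM in chimeras, against 1.44 and 2.19 FPKM in zebrafish embryos (adjusted p = 0.02).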

How the results depend on the processing

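No host difference of a member reversed under the alternatives. The host member median of -1.23 became -2.75 with a pseudocount of 0.1, -0.59 with a pseudocount of 5 and -0.94 under quantile normalization. Donor member records called lower numbered 4, 2 with a pseudocount of 0.1 or quantile normalization, 9 of all 10 with no expression filter, 1 with a mean FPKM of at least 5, and 1 to 4 with a library left out; donor mmp9 reversed to 0.02 under quantile normalization, or -0.29 after taking off the median of all genes.

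Host genes lower numbered 431, but 247 with FPKM as deposited, 996 with all 3 groups in the fit and 77 to 543 with a library left out; those higher numbered 360, 977 with all 3 groups and 43 to 483 with a library left out. Listed host genes lower numbered 20, 11 at a mean FPKM of at least 5, 13 as deposited, 40 with all 3 groups and 2 to 22 with a library left out; those higher numbered 3, 5 without the cross-mapping filter, 6 with all 3 groups and 0 to 4 with a library left out. Donor genes lower numbered 5422, 9482 without the expression filter, 3015 at a mean FPKM of at least 5, 3307 under quantile normalization and 3359 to 5549 with a library left out; those higher numbered 1737, 5387 under quantile normalization and 619 to 1873 with a library left out. Listed donor genes lower numbered 159, and 95 at a mean FPKM of at least 5; those higher numbered 22, 55 under quantile normalization and 6 to 18 with a library left out. The causes were not tested. With only genes over the floor, an alternative added after seeing the data, 455 host genes were lower and 4846 donor genes. A fit with a lone control library assumes that it varies like the chimeras. No paired analysis was possible because the labels number no replicates, and the numbers used here only name the libraries of a group.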

Other observations

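Among ligand genes under the filter on low values, which were not tested, il11a and m17 were lower in every chimera and were named after their values were seen. The other untested ligand genes of the host were not: il10 differed by 0.03, il12ba by 0.01 and tnfsf13b by 0.10. The cytokine gene il11a, of the interleukin 6 family, had 0.0348, 0.086 and 0.117 FPKM in the host tissue of chimeras, against 0.365 and 0.542 FPKM in medaka embryos. The related gene m17 had 0.123, 0.0762 and 0.104 FPKM in chimeras, against 0.277 and 0.48 FPKM in medaka embryos. No chimera reached the lower medaka library for il11a or m17, a pattern that 14.5% of all genes tested on that genome had.

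The complement genes of macrophages varied among the chimeras. The gene c1qb had 2.37, 0.0954 and 1.41 FPKM in chimeras, against 0.0578 and 0.234 FPKM in medaka embryos (adjusted p = 0.42). The gene c1qc had 1.68, 0.025 and 1.25 FPKM in chimeras, against 0 FPKM in both medaka libraries. In chimera 2 c1qb lay between the medaka values and c1qc was close to 0.

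In the donor cells the NF-kB subunit gene rela rose, with 7.09, 6.85 and 7.4 FPKM in chimeras, against 3.62 and 5.0 FPKM in zebrafish embryos (adjusted p = 0.037), while the adaptor gene traf6 fell, with 2.15, 1.85 and 2.02 FPKM in chimeras, against 3.86 and 4.5 FPKM in zebrafish embryos (adjusted p = 0.0088).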
